A study of Homo sapiens with 2 samples.

Results

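The accessibility of 10 imprinted gene loci was examined in 293T cells with and without methylglyoxal (MGO), a reactive dicarbonyl made as a by-product of glycolysis. The 10 genes were listed by name: H19, IGF2, KCNQ1OT1, MEG3, DLK1, SNRPN, PEG3, PEG10, MEST and GNAS, which are 3 lncRNA genes and 7 protein-coding genes of the 38899 such genes in GENCODE 44 (GRCh38). All deposited peaks were taken that lay within 1000 bp of a transcription start site (TSS) of any transcript of these genes, over the gene body, or within 50 kb of a TSS. These were 9 of the 36142 control peaks and 6 of the 22884 MGO peaks. The peaks come from ATAC-seq, a method in which Tn5 transposase cuts and tags DNA where nucleosomes leave it exposed. 293T cells derive from human embryonic kidney and express the large T antigen of SV40. Each condition is 1 library of 50000 cells, one from untreated control cells and one from cells kept for 12 h in medium that contained 0.5 mM MGO. The treatment label of the control names PBS, whereas the protocol describes a change to fresh medium without a supplement. With 1 library per condition no difference between the conditions could be tested, and all values below describe these 2 libraries.

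An imprinted gene is transcribed from only the maternal or only the paternal copy of the chromosome. The choice is carried by differentially methylated regions (DMRs), stretches of CpG-rich DNA that are methylated on only the maternal or only the paternal allele. A germline DMR takes its methylation from the egg or the sperm and acts as the imprinting control region of its cluster, while a somatic DMR acquires it after fertilisation. The unmethylated allele of such a region is often a promoter or a site bound by CTCF, and the methylated allele is held silent by ZFP57 and TRIM28. Peaks do not separate the alleles, so a peak at a DMR cannot be assigned to a parental copy.

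The sequences shown here are those of promoters with a peak, of promoters without one, and of the CTCF sites of the H19/IGF2 imprinting control region, all from GRCh38 and 5′ to 3′ on the strand of the gene. The promoter sequences have the CpG sites in capitals, which in a DMR are the bases that carry the methylation. The GNAS stretch lies outside the DMRs as placed below. Those of PEG10 and GNAS are stretches of 200 bases that the control and the MGO peak share, with 15 and 17 CpG sites. Those of SNRPN and MEST are stretches of the same length just upstream of the TSS, with 8 and 16 CpG sites, where neither library had a peak.
PEG10, chr7:94655735-94655934 (plus strand): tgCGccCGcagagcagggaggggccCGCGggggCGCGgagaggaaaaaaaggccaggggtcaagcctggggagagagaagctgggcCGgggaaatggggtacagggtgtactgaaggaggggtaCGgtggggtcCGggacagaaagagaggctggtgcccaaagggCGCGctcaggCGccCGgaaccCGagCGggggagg
GNAS, chr20:58890790-58890989 (plus strand): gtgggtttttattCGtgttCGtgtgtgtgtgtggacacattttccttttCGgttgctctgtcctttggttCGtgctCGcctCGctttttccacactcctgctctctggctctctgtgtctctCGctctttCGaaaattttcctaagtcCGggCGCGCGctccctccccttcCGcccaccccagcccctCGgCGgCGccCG
SNRPN, chr15:24954735-24954934 (plus strand): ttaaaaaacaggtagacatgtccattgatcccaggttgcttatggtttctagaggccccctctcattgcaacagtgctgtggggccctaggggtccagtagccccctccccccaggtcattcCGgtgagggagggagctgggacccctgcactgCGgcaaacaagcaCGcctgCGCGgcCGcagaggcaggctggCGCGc
MEST, chr7:130491885-130492084 (plus strand): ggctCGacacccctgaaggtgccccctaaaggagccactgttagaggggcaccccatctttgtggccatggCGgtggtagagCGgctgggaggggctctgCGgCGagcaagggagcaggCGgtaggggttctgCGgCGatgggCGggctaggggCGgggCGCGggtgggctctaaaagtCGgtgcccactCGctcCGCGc

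The H19/IGF2 imprinting control region is shown by its matches to the CTCF core GGNGGCAG, which is in capitals. There were 6 matches, all on the strand of H19 and between 2126 and 5177 bp upstream of its TSS. In 5 of the 6 the core is preceded by CCGCG and 1 more base, which holds CpG sites within the CTCF site, and 4 of the 6 have the same 24 bases. Neither library had a peak over any of them.
H19 site 1, chr11:1999964-1999987 (minus strand): aagtggccgcgcGGCGGCAGtgca
H19 site 2, chr11:2000370-2000393 (minus strand): aggtggctgcgcGGCGGCAGtgca
H19 site 3, chr11:2000776-2000799 (minus strand): aagtggccgcgtGGCGGCAGtgca
H19 site 4, chr11:2002209-2002232 (minus strand): aagtggccgcgcGGCGGCAGtgca
H19 site 5, chr11:2002610-2002633 (minus strand): aagtggccgcgcGGCGGCAGtgca
H19 site 6, chr11:2003015-2003038 (minus strand): aagtggccgcgcGGCGGCAGtgca

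Of the 10 imprinted genes, 3 had a peak within 1000 bp of a TSS in the control library (95% Wilson interval 10.8% to 60.3%), and the same 3 genes had one in the MGO library. They were KCNQ1OT1, the lncRNA that silences its neighbours on the paternal copy of 11p15; PEG10, a retrotransposon-derived gene needed in the placenta; and GNAS, which encodes the stimulatory G protein subunit Gsα. The other 7 genes had no TSS peak in either library. Over all genes, 47.1% had a control TSS peak and 43.8% an MGO TSS peak. Most imprinted promoters are CpG-rich, and this class of promoter is accessible in nearly every cell type. Among the 13419 genes with at least 50% GC and a CpG observed-to-expected ratio of at least 0.6 in the 1000 bp on either side of the canonical TSS, 89% had a control TSS peak and 87% an MGO TSS peak. Of the 8 imprinted genes in that class, 3 had a control TSS peak (95% Wilson interval 13.7% to 69.4%). The 2 genes outside it were H19, with 51.5% GC and a ratio of 0.355 at the canonical TSS, and MEG3, with 57.4% GC and a ratio of 0.330. At the known promoters of H19 and MEG3, which start elsewhere, the ratios were 0.440 and 0.580, also below the limit.

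**Figure D1:**
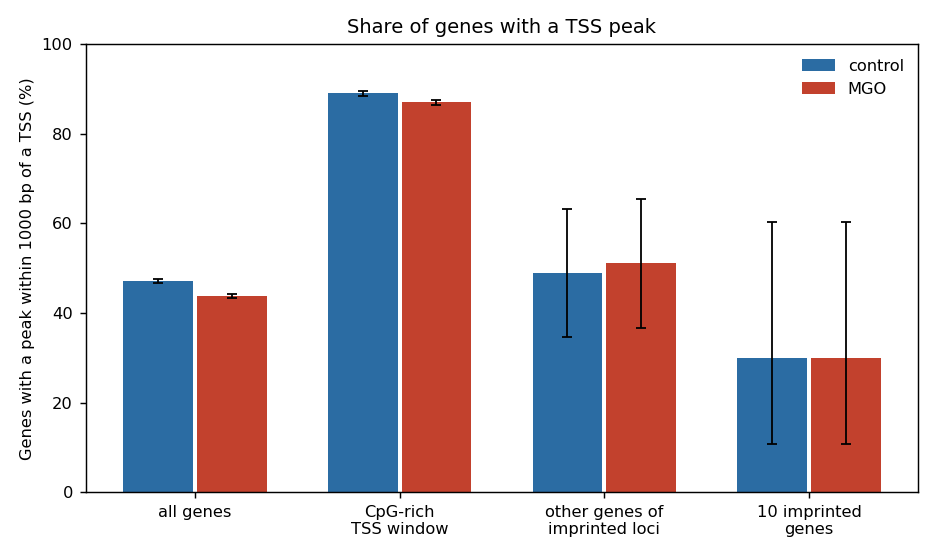
Share of genes (%) with a peak within 1000 bp of a TSS in the control (blue) and MGO (red) library, for all genes, genes with a CpG-rich TSS window, 43 other genes of imprinted loci and the 10 imprinted genes; error bars are 95% Wilson intervals, which cover counting error only. The 10 imprinted genes stand at 3 of 10 in both libraries, with an interval that includes the 47.1% and 43.8% of all genes, and 3 of the 8 with a CpG-rich window have a control peak, beside 89% of that class.

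The zones searched around the genes held few peaks or none. DLK1, SNRPN and PEG3 had no peak over the gene or within 50 kb in either library. MEG3 had none in the control library and IGF2 had none in the MGO library, so that each library had 4 genes without a peak (95% Wilson interval 16.8% to 68.7%). Over all genes, 16.5% had no control peak and 24.5% no MGO peak in such a zone, and the median gene had 2 control peaks and 1 MGO peak, beside a median of 1 and 1 over the 10 imprinted genes. In the MGO library the interval includes the share over all genes, and the medians are the same. In the control library the interval begins at 16.8%, just above the 16.5% of all genes. It takes the genes as independent, although DLK1 and MEG3 lie in the same stretch without control peaks. Of the 9 control peaks at the imprinted loci, 4 overlapped an MGO peak (44.4%, 95% Wilson interval 18.9% to 73.3%), beside 49.7% of all control peaks. With only peaks that reached the q-value limit of the methods, a −log10 q of at least 2, the share was 75% (3 of 4), beside 59% of all such control peaks. Among the 6 MGO peaks, 4 had an overlapping partner in control (66.7%, 30.0% to 90.3%), beside 78.9% of all MGO peaks. The ratio of MGO to control peaks was 0.667 (exact 95% interval 0.195 to 2.10). Fewer MGO than control peaks were also found over chromosomes 1 to 22, X and Y, 22379 beside 35515, so the lower number was not particular to these loci. Under the stricter limit the loci held 4 peaks in each library, a ratio of 1, beside 15738 MGO and 23458 control peaks over these chromosomes. The intervals are wide because few peaks were found at the loci.

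**Figure D2:**
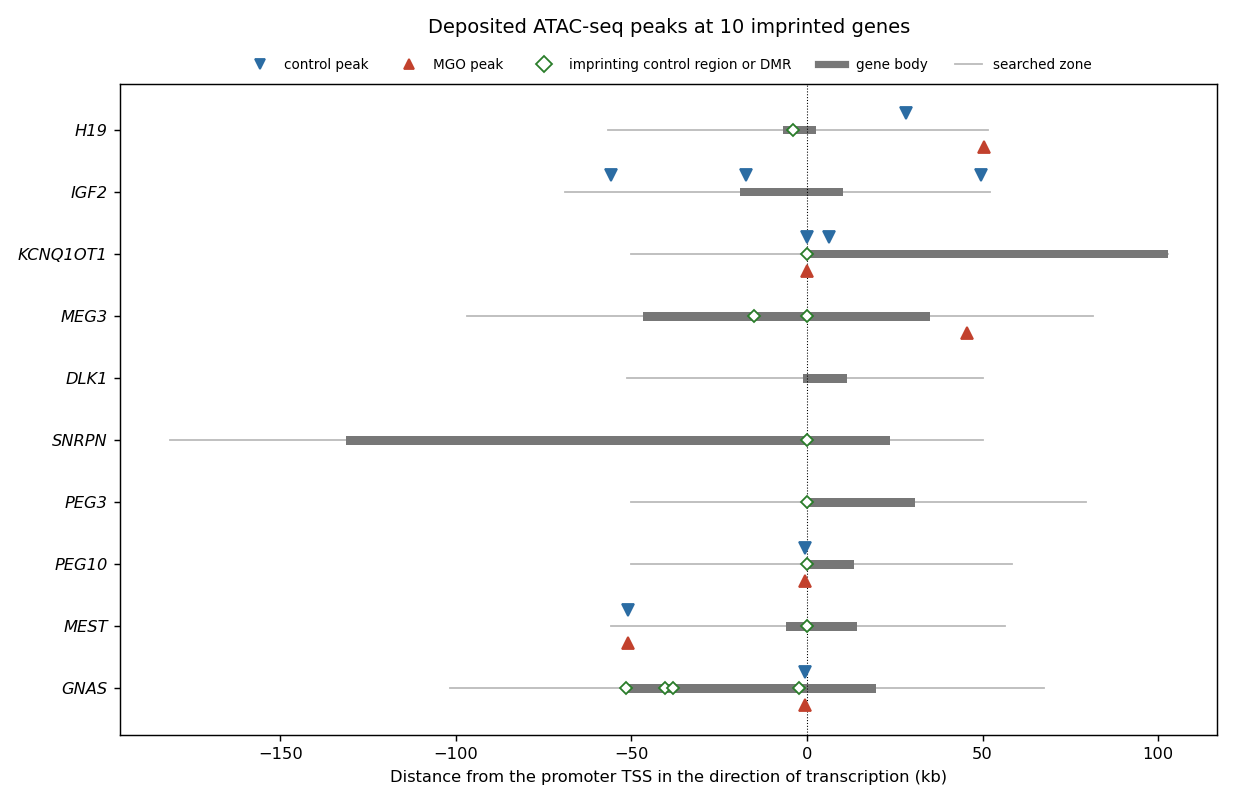
Deposited control (blue) and MGO (red) peaks at the 10 imprinted genes, by distance from the promoter TSS in the direction of transcription (kb), with gene bodies as thick bars, the searched zone as thin lines and imprinting control regions or other DMRs as diamonds. Peaks lie at the promoter TSS only at KCNQ1OT1, PEG10 and GNAS, and the zones of DLK1, SNRPN and PEG3 are empty.

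The peaks at the 3 promoters were kept in the MGO library, beside 84.6% of all control TSS peaks that overlapped an MGO peak. In each of the 3, the MGO peak was wider than the control peak, which was so in 31.4% of the 12599 TSS peaks that paired 1 to 1 between the libraries. The peak strength, given as the −log10 of the p-value that the peak caller assigned, was higher with MGO at PEG10 and GNAS and lower at KCNQ1OT1, beside 22.6% of all pairs with a higher value in MGO. The control peaks at PEG10 and GNAS were weak. Among the 1320 pairs with a control −log10 p of 5 or less, the MGO value was the higher one in 66.3% and the MGO peak was the wider one in 39% of pairs. Together the 3 peaks covered 3078 bp in the control library and 3787 bp in the MGO library, whereas the median MGO to control width ratio of all pairs was 0.896.

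**Figure D3:**
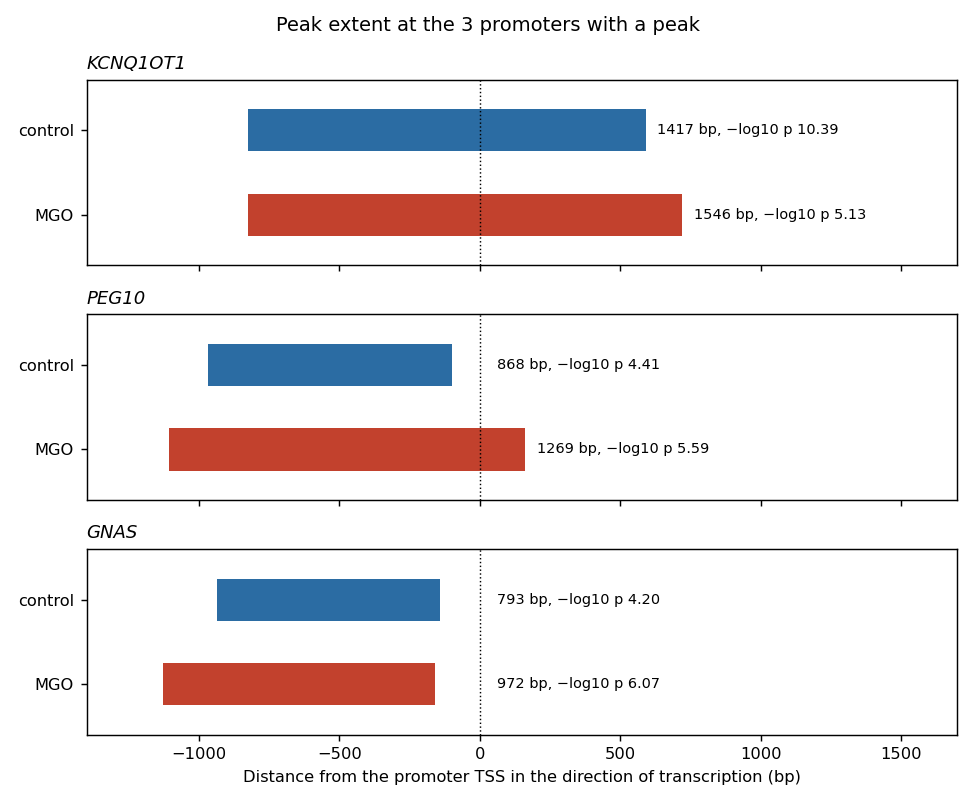
Extent of the control (blue) and MGO (red) peak at the 3 promoters of imprinted genes with a peak, by distance from the promoter TSS in the direction of transcription (bp), with the width and −log10 p of each peak beside it. The GNAS peak is at the Gsα promoter, which lies outside the DMRs as placed here. The MGO peak is the wider one at each promoter, and the PEG10 peak reaches over the TSS in the MGO library only.

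KCNQ1OT1 is transcribed on the minus strand of chromosome 11 from within an intron of KCNQ1, which encodes a potassium channel, and its promoter is the imprinting control region KvDMR1. The control peak (chr11:2699413-2700829) was 1417 bp wide, with a fold enrichment of 3.74 over background, a −log10 p of 10.4 and a −log10 q of 7.70. The MGO peak (chr11:2699282-2700827) was 1546 bp wide, with a fold enrichment of 2.81, a −log10 p of 5.13 and a −log10 q of 2.63. Both peaks held the TSS. They shared 1415 bp, which is 99.9% of the control peak, and the added width of the MGO peak was on the transcribed side. The control peak ranked at the 83.2 percentile of all control peaks by −log10 p, and the MGO peak at the 42.8 percentile of MGO peaks. The 2 ranks are not on the same scale, since the lists differ in make-up. Peaks farther than 1000 bp from any TSS were 20572 of 35515 in control and 9163 of 22379 in MGO. A weaker control peak of 802 bp (chr11:2693394-2694195, −log10 p of 3.25 and −log10 q of 1.14) lay 5787 bp into the KCNQ1OT1 transcript and overlapped no MGO peak.

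PEG10 shares its promoter with SGCE, which encodes epsilon-sarcoglycan and is transcribed in the opposite direction on chromosome 7. The control peak (chr7:94655402-94656269) was 868 bp wide, with a fold enrichment of 2.89, a −log10 p of 4.41 and a −log10 q of 2.14. The MGO peak (chr7:94655264-94656532) was 1269 bp wide, with a fold enrichment of 3.30, a −log10 p of 5.59 and a −log10 q of 3.07. It held the whole control peak and 401 bp more. The control peak ended 101 bp before the canonical PEG10 TSS, on the SGCE side, and the MGO peak ran past that TSS.

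GNAS on chromosome 20 has several promoters that are imprinted in different ways, and the Gsα promoter is itself unmethylated on both alleles. The only peak at any GNAS TSS lay just upstream of the Gsα TSS. In the control library (chr20:58890486-58891278) it was 793 bp wide, with a fold enrichment of 2.52, a −log10 p of 4.20 and a −log10 q of 1.95. In the MGO library (chr20:58890292-58891263) it was 972 bp wide, with a fold enrichment of 2.89, a −log10 p of 6.07 and a −log10 q of 3.49. The peaks shared 778 bp, or 98.1% of the control peak, and ended 143 bp and 158 bp before the TSS. The q-value of the control peak misses the limit of 0.01 given in the methods, a −log10 of 2, although the peak is in the deposited list. The GNAS peak also lies close to the exon A/B promoter, a germline DMR methylated on the maternal allele, and stayed 335 bp (control) and 141 bp (MGO) away from its window.

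Imprinting control regions were placed from the annotation, as the 1000 bp on either side of the promoter TSS or, for H19 and the DLK1-MEG3 cluster, as a stretch upstream of it, since no file gave their borders. Of the 12 regions, 10 are germline and 2 somatic DMRs. A peak lay over 2 of the 12 in each library, KvDMR1 and the PEG10-SGCE promoter. The control peak covered 70.8% of KvDMR1 and the MGO peak 77.3%. For the PEG10-SGCE promoter these shares were 43.4% and 58.1%. The other 8 germline DMRs, those of H19/IGF2, DLK1-MEG3, SNRPN, PEG3, MEST, GNAS-AS1, XLas and GNAS exon A/B, had no peak, and neither had the 2 somatic DMRs, the MEG3 and NESP55 promoters. A region without a peak may still hold reads, since the lists carry only what passed the peak caller.

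The regions were also searched on both strands for TGCCGC, the motif that ZFP57 binds when it is methylated. A match is a description of the sequence and not a bound site. It was present in 8 of the 10 regions centred on a promoter TSS, beside 46.0% of windows of that length around all canonical TSSs and 76.9% of those that were CpG-rich. KvDMR1, the PEG3 promoter and the MEST promoter held 6 matches each, a number reached in 2.12% of CpG-rich windows, and a peak lay over the first of these and not over the other two. The window 2 to 6 kb upstream of the H19 TSS held 10 matches, a number reached in 0.0360% of windows at this distance from all canonical TSSs. Its 6 CTCF core matches were reached in 3.16% of such windows. These counts are not separate, since each of the 6 cores reads GGCGGCAG and so holds TGCCGC on the opposite strand. Thus 6 of the 10 TGCCGC matches lie within the CTCF cores. The nearest peak to this H19 window was 30.0 kb away in the control library and 52.0 kb away in MGO.

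H19, a lncRNA expressed from the maternal copy, and IGF2, a growth factor gene expressed from the paternal copy, share the enhancers that the CTCF sites above divide between them. H19 on chromosome 11 had no peak at a TSS or over the gene. Its nearest control peak (chr11:1969263-1969800, −log10 p of 3.36) was in an intron of MRPL23, 26.5 kb away, and its nearest MGO peak (chr11:1947125-1947813, −log10 p of 3.79) was at the MRPL23 TSS, 48.5 kb away. These 2 peaks do not overlap each other or any peak of the other library. Their −log10 q was 1.21 and 1.44, below the limit of 2. IGF2 had 3 control peaks, with −log10 p from 4.12 to 4.82, and no MGO peak. Only the strongest reached a −log10 q of 2 (2.51), and the others had 1.89 and 1.96. The closest was a peak of 459 bp (chr11:2156635-2157093) in an intron, 1243 bp from a TSS, and the strongest was intergenic (chr11:2089442-2089959), 47328 bp from a TSS. None of the 3 overlapped an MGO peak, which is also the more frequent outcome among distal control peaks, of which 24.3% overlapped one. In the MGO library the nearest peak to an IGF2 TSS was 110.7 kb away, over an exon of ASCL2.

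DLK1, a Notch ligand-like gene of the paternal copy, and MEG3, a lncRNA of the maternal copy, neighbour each other on chromosome 14. In the control library neither had a peak in its zone, and both lay in a stretch of 485.4 kb without any control peak (chr14:100587378-101072790). In the MGO library this stretch held 1 peak near MEG3, of 273 bp (chr14:100871602-100871874, −log10 p of 3.47 and −log10 q of 1.17), in an intron of MIR493HG. It overlapped no control peak and ranked at the 1.74 percentile of MGO peaks by −log10 p. The nearest peak to DLK1 was 138.3 kb away in the control library and 138.4 kb away in the MGO library, over an exon of BEGAIN.

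SNRPN, a spliceosomal protein gene whose paternal copy drives the Prader-Willi cluster on chromosome 15, lay in the longest stretch without peaks of the 10 genes. No control peak lay between chr15:23039725 and chr15:25438180, 2.40 Mb that hold 30 whole genes, 11 of them protein-coding, and 50000 unknown bases. The MGO library had no peak over 2.60 Mb around the same promoter. A canonical TSS in a peak-free stretch of at least 500 kb was found for 7.31% of all genes in the control library and 13.7% in the MGO library, and among the 10 imprinted genes only for SNRPN. The stretch ended at the UBE3A peak, 483.2 kb from the nearest SNRPN TSS in both libraries, with a −log10 p of 9.44 in control and 11.2 in MGO. UBE3A encodes the ubiquitin ligase that is lost in Angelman syndrome.

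PEG3, a zinc finger gene of the paternal copy on chromosome 19, had its nearest peak 65.6 kb away in both libraries and lay in peak-free stretches of 445.7 kb (control) and 426.7 kb (MGO). MEST, a paternally expressed gene of the mesoderm on chromosome 7, had 1 peak within 50 kb in each library, at the TSS of the ciliary gene CEP41. It was the strongest peak near any of the 10 genes, with a −log10 p of 13.1 in control (chr7:130440637-130441369, 733 bp) and 10.9 in MGO (chr7:130440810-130441314, 505 bp). All of the MGO peak lay within the control peak. Between it and the MEST promoter, whose CpG-rich sequence is printed above, no peak was found.

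**Figure D4:**
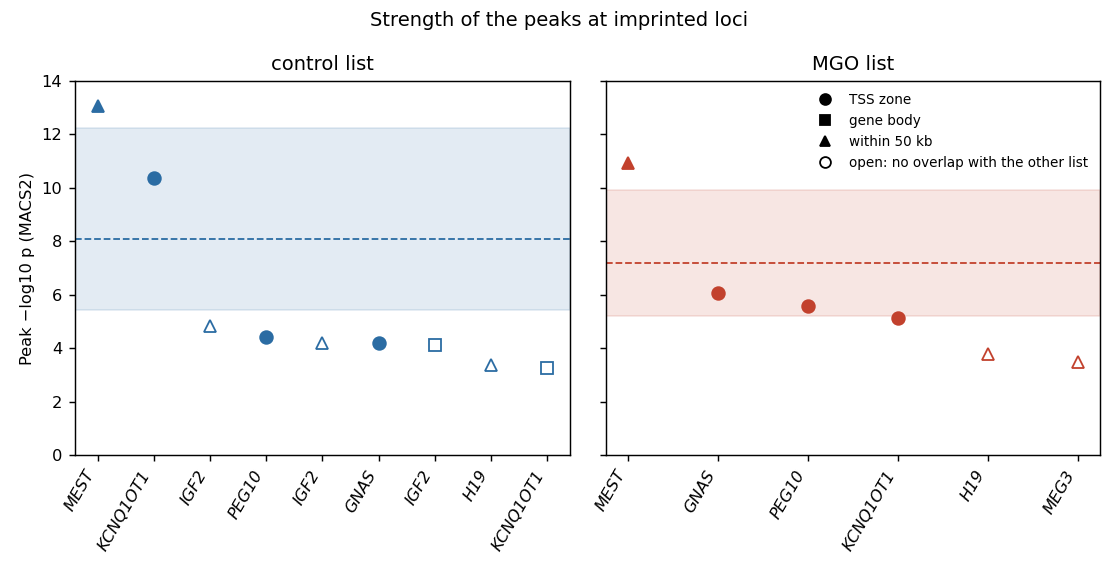
The −log10 p of each peak at the imprinted loci, by the gene whose zone holds it, in the control (left) and MGO (right) library; dashed lines and bands are the median and quartiles of all TSS peaks of that library. In control only the peaks of the MEST zone (at CEP41) and of the KCNQ1OT1 promoter lie above the median of 8.10, and in MGO only that of the MEST zone lies above 7.17.

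The other genes of these and further imprinted clusters, both imprinted genes and neighbours, were counted from a list of 43. A TSS peak was found for 21 of them in the control library (48.8%, 95% Wilson interval 34.6% to 63.2%) and for 22 in the MGO library (51.2%), close to the shares over all genes. In 19 of the 43 it was present in both libraries and in 19 in neither. A TSS peak in control only was found at KCNQ1 (−log10 p of 5.09) and at ZNF597 (3.85), and in MGO only at MRPL23 (3.79), PHLDA2, a placental growth restrainer (3.88), and ZNF331 (4.48). The peaks of ZNF597, MRPL23 and PHLDA2 had a −log10 q of 1.64, 1.44 and 1.52, below the limit of 2. Those of KCNQ1 and ZNF331 had 2.76 and 2.04. Of the 30 CpG-rich genes in the list, 19 had a control TSS peak, beside 89% of all such genes. Among all 43 genes, CpG-rich or not, those without a TSS peak in either library included SNURF, NDN, MAGEL2 and MKRN3 of the SNRPN cluster. They also included DIO3, RTL1, MEG8 and MEG9 of the DLK1-MEG3 cluster, ZIM2 beside PEG3, MESTIT1 beside MEST, and GNAS-AS1. Of these, MAGEL2, MKRN3, RTL1, MEG8, MEG9 and GNAS-AS1 were not CpG-rich. At the 43 genes, 20 of 23 control TSS peaks overlapped an MGO peak, beside the 84.6% over all control TSS peaks. The TSS peak of SGCE, which is in the list, is the same peak as that of PEG10. SNURF, also in the list, shares the promoter of SNRPN. The list is therefore not independent of the imprinted genes described above.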

How the data were processed

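ATAC-seq peak lists of 1 control and 1 MGO library of 293T cells were analysed. The authors aligned reads to GRCh38.p12 with BWA 0.7.15, used Picard (2.16.0 per the labels, another version in the methods) to take out reads that were mitochondrial or mapped to several places, equalized depth by subsampling and called broad peaks in each library with MACS2, whose version is not given in the sources used here. For each peak the authors deposited a score, which was not used, a ratio (fold enrichment relative to background), and the p-value and the q-value, each as −log10. The deposited lists hold peaks down to a −log10 q of 1.01 in both libraries, while the methods give a limit of 0.01. The methods give an approximate number of reads sequenced per sample, but the number left in each library after filtering and subsampling is not given in the sources used here, so no error from depth could be computed. The methods also derive consensus peaks by Irreproducible Discovery Rate, which compares replicates, and peak names in both lists carry the number 2, so further libraries may exist that were not analysed here.

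All deposited peaks on chromosomes 1 to 22, X and Y were used, and 627 control and 505 MGO peaks on other contigs were left out. GENCODE 44 gave TSSs and gene bodies of protein-coding and lncRNA genes, and GRCh38 gave sequences. Overlap counted from 1 bp. Intervals are 95% Wilson intervals, or exact binomial ones for ratios, and cover counting error only. The promoter TSS was that of the canonical transcript except for H19 and MEG3, where the transcript at the known promoter was used. The H19/IGF2 imprinting control region was taken as 2 to 6 kb upstream of the H19 promoter TSS and the DLK1-MEG3 one as 10 to 20 kb upstream of the MEG3 promoter TSS.

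The 10 genes were all named, with the peaks of their TSS zones and control regions and those without a partner in the other library. The strongest peak near MEST and the peaks next to empty zones were named after their values were seen. The genes, a list of 43 other imprinted genes and cluster neighbours, and a list of 14 imprint factors were chosen with earlier results of these data known. No test between conditions was made. Alternatives were q-value limits, TSS windows, distances, a reciprocal overlap of 50% and canonical TSSs only. Python 3.11.15 with numpy 2.4.6, scipy 1.17.1 and matplotlib 3.10.9 was used, and the overlap code was tested on simulated data.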

Additional observations from a re-analysis of the deposited data

How the results depend on the processing

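Of 27 alternative values for 5 results, 23 moved less than their counting interval. With a −log10 q of at least 5 in both lists, 1 gene kept a control TSS peak (KCNQ1OT1) and 0 an MGO TSS peak, so 0% of the control TSS peaks overlapped an MGO peak. With a −log10 q of at least 2, 75% of the control peaks at the loci (3 of 4) overlapped an MGO peak. The KCNQ1OT1 MGO peak, with a −log10 q of 2.63, missed the limit of 5. At the limit of 2, control peaks without a partner at H19, IGF2 and KCNQ1OT1 were left out. At that limit the GNAS control peak is lost and 2 genes keep a control TSS peak, while a TSS window of 2000 bp adds IGF2 and gives 4. The ratio of MGO to control peaks ranged from 0.429 to 1. No paired analysis was possible because each condition is represented by 1 library, so the spread between cultures is not known. Peak lists carry no depth, no alleles and no methylation, and the borders of the imprinting control regions come from annotation.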

Other observations

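The factors that set, read or keep imprints were counted from a list of 14 genes. A TSS peak was found for 10 of them in the control library (71.4%, 95% Wilson interval 45.4% to 88.3%) and for 9 in the MGO library (64.3%), beside 47.1% and 43.8% of all genes, and 9 had it in both. Of the 10 factors with a CpG-rich TSS window, 9 had a control TSS peak, beside 89% of all such genes. CTCF, the insulator protein, had a −log10 p of 11.1 in control and 9.40 in MGO. TRIM28, the corepressor that ZFP57 recruits, had 7.67 in control and 10.0 in MGO. ZNF445, a zinc finger protein that also keeps imprints, had 7.37 and 7.65, and DNMT1, the maintenance DNA methyltransferase, had 6.86 and 4.37. The others with a peak in both libraries, by their strongest TSS peak, were DNMT3A (5.19 in control and 6.13 in MGO) and UHRF1 (5.89 and 4.90). SMCHD1 had 8.99 and 6.26, YY1 7.45 and 5.12, and SETDB1 8.62 and 5.19. Over all TSS peaks paired 1 to 1, the MGO value was the higher one in 22.6%. DNMT3B, a de novo DNA methyltransferase, was the only one of the 14 with a TSS peak in control alone (chr20:32761828-32762809, −log10 p of 7.74 and −log10 q of 5.22). ZFP57, DNMT3L, DPPA3 and CTCFL, genes known for expression in germ cells or early embryos, had no TSS peak in either library. Of the 12 control TSS peaks at these genes, 9 overlapped an MGO peak, beside 84.6% of all control TSS peaks.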
